A study of Mus musculus with 12 samples.

Results

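S28 is 1 of the 4 Cas9 target sites whose repair outcomes were read with individual DNA molecule sequencing (IDM-seq) in muscle stem cells (MuSCs), from which skeletal muscle regenerates. It was represented by 3 of the 12 samples, namely 2 edited libraries (replicates 1 and 2) and 1 unedited library. The edited MuSCs came from Pax7Cas9 mice, in which Cre from the Pax7 locus switches on a Cre-dependent Cas9, and the animals had received AAV9 carrying an sgRNA by intramuscular injection. The study names its single-sgRNA sites with S, and the labels give an sgRNA virus for this assay, whereas a legend gives dual sgRNAs, so whether a second guide was present was not settled. The unedited library was the same amplicon from unedited MuSCs. Its molecules are not listed in the tables used here and were not analysed here, and the authors had already removed indels that they found in control samples. The labels number the replicates without tying them to animals, and biological replicates are stated for the short-read libraries of the study, so for the long-read ones differences between them measure the spread between 2 libraries, which may be technical. Young mice were injected, at an age when the future MuSCs are still dividing as myoblasts, and sorted MuSCs were read weeks later, so several molecules with the same indel may descend from 1 edited cell.

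In IDM-seq a unique molecular identifier (UMI) is attached to each genomic DNA molecule before amplification, so a UMI stands for 1 molecule. The deposited tables counted 362 indels among 3745 UMI types in replicate 1 and 310 among 4915 in replicate 2. Of these, 357 and 304 molecules could be described event by event, which is 661 of the 2578 described at all sites. The other 11 were insertions of 20 bp or more by their class counts, so large insertions are described for 47 of 58 molecules (21 of 26 in replicate 1 and 26 of 32 in replicate 2). UMIs were nearly private to a library, as the S28 libraries shared 2 UMIs, and 8 UMI pairs within a library were at most 1 base apart, of which 1 carried the same indel. The number of reads behind each UMI is unknown, and all intervals below are 95% Wilson intervals that cover counting error only. The limit given for a count of 0 is the share that 3 counts would make.

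Cas9 cuts both strands a few bases from the PAM, the short motif that it needs beside the guide's target. The break is sealed by non-homologous end joining (NHEJ), which leaves small insertions and deletions, or by microhomology-mediated end joining (MMEJ), in which a short repeat on both sides of the break is aligned and 1 copy is lost with the bases between. Deletions of 50 bp or more are called large deletions (LDs) and insertions of 20 bp or more large insertions (LIs).

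The deposited deletion sequences placed S28 on chromosome 4, in intron 7 of Pax7, the gene of a transcription factor that marks MuSCs (minus strand, chr4:139737062-139833528, own match to GRCm38, GENCODE vM21). The cut fell between chr4:139771798 and chr4:139771799, 7778 bp from exon 7 and 22620 bp from exon 8 of Pax7-201. All S28 indels lay within chr4:139770905-139772662, so no exon of Pax7-201, the only transcript compared, was touched. Of 567 deleted sequences, 565 were identical to the reference. The target and its PAM lie on the minus strand at chr4:139771793-139771815. They are shown first with the PAM in capitals, and below them the plus strand around the cut at chr4:139771784-139771813, with 2 copies of a 6-bp repeat in capitals, because the most frequent S28 indel joins these copies.
S28 target and PAM: tctcaccatgactggggtcaAGG
S28 plus strand: aaaacTGACCCtTGACCCcagtcatggtga
Positions are counted here on the plus strand, with base 0 to the left of the cut and base 1 to its right. The PAM occupies bases -5 to -3, so negative positions are the PAM side. A run of 4 C begins right of the cut, at base 1.

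The commonest outcome at S28 was loss of 7 bp at the TGACCC repeat. This deletion was carried by 21 of 357 indels in replicate 1 (5.88%, interval 3.88% to 8.82%) and by 17 of 304 in replicate 2 (5.59%, 3.52% to 8.77%). It is listed at -9 to -3, but with 6 bp of microhomology (MH) it has equivalent placements that span the cut. Next came loss of the single A at base 0, with 18 molecules (5.04%) in replicate 1 and 6 (1.97%) in replicate 2. The 8-bp deletion from -6 to 1, which has 3 bp of MH, was seen in 4 molecules (1.12%) in replicate 1 and 11 (3.62%) in replicate 2. These junctions are shown with the bases of MH in capitals, which are read once in the edited molecule.
7-bp deletion: ctgtttgaaaacTGACCCcagtcatggtga
1-bp deletion: aactgacccttgccccagtcatgg
8-bp deletion: tttgaaaactgaCCCagtcatggtgag

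Several frequent outcomes fell in the C run beside the cut. Loss of 3 of its 4 C was found in 11 molecules in replicate 1 and 10 in replicate 2, and loss of all 4 C in 5 and 6. A C was gained at base 1 in 9 molecules in replicate 1 and 4 in replicate 2. This base equals the one on the far side of the cut from the PAM, and 13 of 19 insertions of 1 bp held it (68.4%, 46.0% to 84.6%). Of the other 6, 5 were a T, and none held the A found on the PAM side of the cut. Whether Nanopore base calling in the C run contributed was not tested, and the unedited library, in which it would show, was not analysed here. The 10 most frequent types were completed by deletions of -1 to 5 (8 and 3 molecules), -1 to 0 (7 and 2), 1 to 6 (5 and 4) and 0 to 4 (5 and 3), and together the 10 types held 159 of 661 indels (24.1%).

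**Figure D1:**
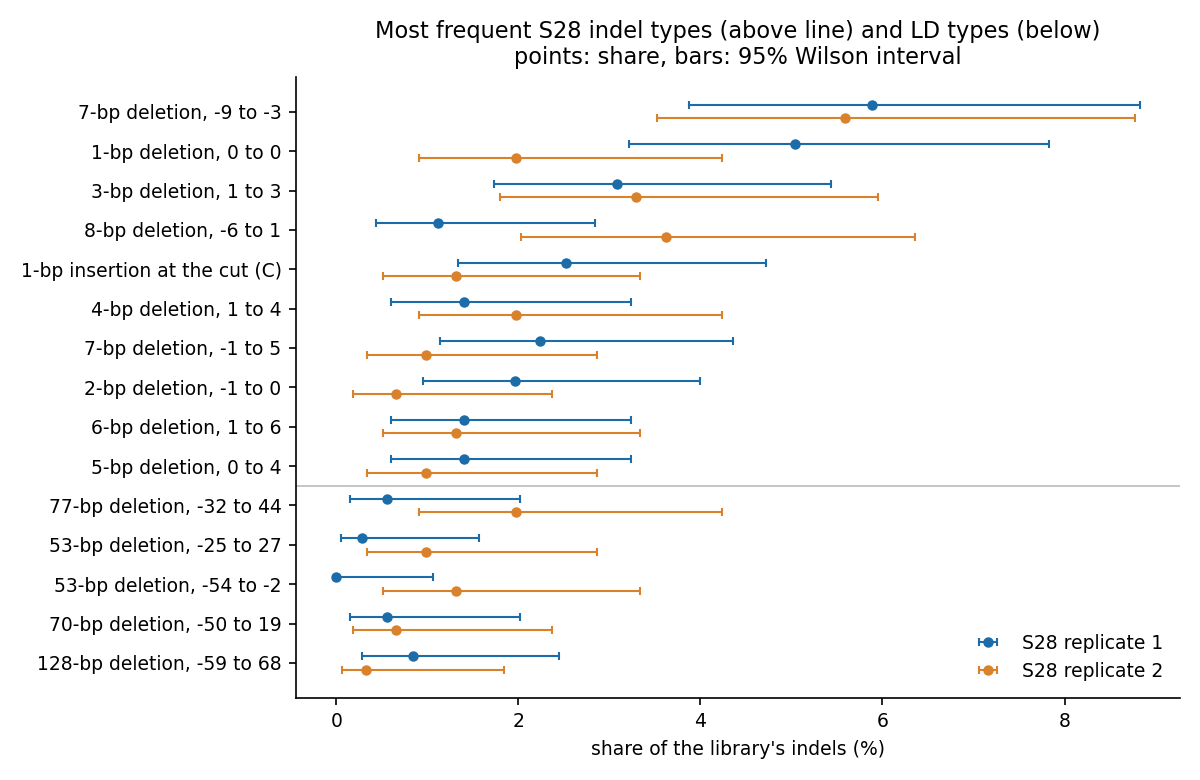
Share of each S28 library's indels (x axis, %) held by the 10 most frequent indel types and the 5 most frequent LD types (y axis), with 95% Wilson intervals as bars; labels give size and first to last base from the cut. The 7-bp deletion leads in both replicates at 5.88% and 5.59%, and the intervals of replicates 1 and 2 overlap for all 15 types shown.

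Recurrence was tested for the 7 types with at least 10 molecules over both replicates. None differed between replicates after Benjamini-Hochberg adjustment (Fisher's exact test, two-sided, 0 of 7, 0% called, lowest adjusted p = 0.134), and none by the mid-p version. Without adjustment, 2 types had p under 0.05 by the same exact test. For the 1-bp deletion the difference, replicate 2 minus replicate 1, was -3.07 percentage points (interval -6.05 to -0.157, exact p = 0.0382), and for the 8-bp deletion it was 2.50 points (0.155 to 5.33, exact p = 0.0371). For the 7-bp deletion it was -0.290 points, with an interval of -3.89 to 3.47. Where molecules were set against all UMI types of a library instead of against its indels, 1 type was called, the 1-bp deletion (Fisher's exact test, adjusted p = 0.0205). Indels made up 9.67% of UMI types in replicate 1 and 6.31% in replicate 2. This denominator therefore also takes in the different share of edited molecules.

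Most S28 indel types were rare. Replicate 1 held 197 types and replicate 2 held 174, and 220 of the 331 types in all (66.5%) were seen in 1 molecule. The replicates shared 40 types (Jaccard index 0.121), which is 20.3% of the types of replicate 1 and 23.0% of those of replicate 2. By molecules the overlap was larger, as 151 of 357 molecules in replicate 1 (42.3%) and 121 of 304 in replicate 2 (39.8%) had a type present in the other. Of the 10 most frequent types of each library, 4 were shared (Jaccard index 0.25). In both libraries several types tied for the last places. The ties were broken by the text label of the type, not by size, so this number depends on that choice. These shares depend on what counts as 1 type and on the number of molecules compared. With starts and lengths allowed to differ by 2 bp, 57.1% of molecules in replicate 1 and 62.2% in replicate 2 had a counterpart. UMIs read in both orientations, as inferred here from the UMI names, kept only 158 molecules in replicate 1 and 118 in replicate 2. Exact matching among these gave 27.8% and 27.1%. Random draws of 94 molecules from each full library gave 29.3% and 27.0%.

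Fewer of the larger indels recurred, which was not tested. Deletions under 50 bp shared 30 of 119 types (Jaccard index 0.252), and 61.2% of their molecules in replicate 1 and 60.8% in replicate 2 had a type of the other library. LDs shared 8 of 155 types (0.0516), covering 13 of 108 LD molecules in replicate 1 and 17 of 106 in replicate 2. No LI sequence was found in both replicates (0 of 41 types), and none matched between replicates by start and net length. Within 2 bp of start and length, 3 LIs of replicate 1 and 4 of replicate 2 had a counterpart. With 21 and 26 LIs read, a count of 0 allows, by the limit of 3 counts, a share of up to 14.3% in replicate 1 and 11.5% in replicate 2. Deletion types found in both replicates had a median size of 13.5 bp and a median MH of 2 bp, whereas those found in 1 replicate had medians of 91.5 bp and 1 bp. MH of 2 bp or more was present in 20 of 38 shared deletion types (52.6%) and in 108 of 234 unshared ones (46.2%), a difference that was not tested.

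Some types recurred within 1 library and were absent from the other. The most frequent of them was the 9-bp deletion from -6 to 2, seen in 0 molecules in replicate 1 and 6 in replicate 2, and the 12-bp deletion from 1 to 12 followed with 5 and 0. In all, 6 such types had at least 4 molecules, and they were singled out after their values were seen. Among LDs, 33 types had at least 2 molecules in 1 replicate and none in the other. Descent of these molecules from a common edited cell cannot be told apart from repeated formation in this design.

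Deletion sizes ranged from 1 bp to 1076 bp in replicate 1 and to 1741 bp in replicate 2. The median deletion was 25 bp in replicate 1 (quartiles 7 and 109) and 22 bp in replicate 2 (7 and 90). Below 50 bp both replicates had a median of 8 bp. Among LDs the median was 207 bp in replicate 1 (109 and 408.5) and 119 bp in replicate 2 (77 and 286.5). The largest class in both was 3 to 9 bp, with 88 of 357 indels in replicate 1 (24.6%) and 89 of 304 in replicate 2 (29.3%). Deletions of 500 bp or more were found in 16 (4.48%) and 13 molecules (4.28%), and the longest of each library, -635 to 440 in replicate 1 and -876 to 864 in replicate 2, was carried by 2 molecules. The end of the amplicon bounds what could be seen, since deletions that remove a primer site are not amplified.

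**Figure D2:**
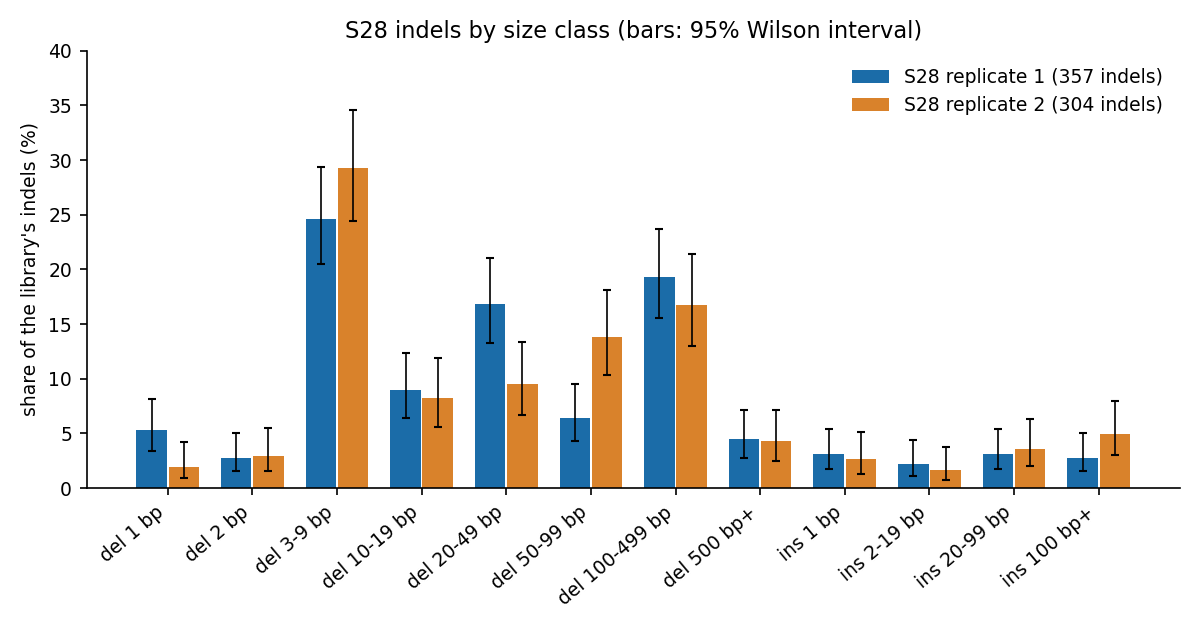
Share of each S28 library's indels (y axis, %) in 12 size classes (x axis; del, deletion; ins, insertion; +, or more), with 95% Wilson intervals. Deletions of 20 to 49 bp were lower in replicate 2 (9.54% against 16.8%) and those of 50 to 99 bp higher (13.8% against 6.44%). Among these, the intervals of the 20 to 49 bp class overlap slightly (from 13.3% in replicate 1, to 13.4% in replicate 2).

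Of the 12 size classes, 2 were called between the libraries by Fisher's exact test over molecules after adjustment (16.7%). This test takes molecules as independent, which those from a common edited cell are not. Deletions of 20 to 49 bp made up 60 of 357 indels in replicate 1 (16.8%) and 29 of 304 in replicate 2 (9.54%), a difference of -7.27 points (interval -12.3 to -2.07, Fisher's exact test, adjusted p = 0.0497). Deletions of 50 to 99 bp made up 23 (6.44%) and 42 (13.8%), a difference of 7.37 points (2.79 to 12.2, Fisher's exact test, adjusted p = 0.0195). When each type was counted once, the differences were -5.12 and 5.23 points, and neither was called by the exact test (both adjusted p = 0.859). Among the 158 and 118 molecules whose UMI was taken as read in both orientations, neither was called by the exact test (both adjusted p = 0.124). The differences there were larger, at -9.89 and 8.71 points, but rested on fewer molecules. Set against all UMI types, the class of 50 to 99 bp was no longer called (exact test, adjusted p = 0.350), whereas that of 20 to 49 bp (adjusted p = 5.38e-05) and that of 1 bp (adjusted p = 0.00621) were among 3 classes called. That denominator also takes in the higher share of indels per UMI type in replicate 1 (9.67% against 6.31%). These calls are thus not differences in size alone.

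The LDs that recurred most were short and had repeats at their ends. The leading LD removed 77 bp from -32 to 44 at 6 bp of MH, in 2 molecules in replicate 1 (0.560%) and 6 in replicate 2 (1.97%). It was followed by types with 4 molecules each, namely 53 bp from -25 to 27 (1 and 3), 53 bp from -54 to -2 (0 and 4), 70 bp from -50 to 19 (2 and 2) and 128 bp from -59 to 68 (3 and 1). All but the -54 to -2 type, which had 1 bp of MH, were found in both replicates with 2 to 6 bp of MH. Such MH is not particular to these types. Over all LD molecules, at least 2 bp was present in 67.6% in replicate 1 and 64.2% in replicate 2. The junctions of the leading LD and of the 70-bp LD are shown because each carries 4 bp or more of MH, in capitals.
77-bp LD: aagccagccacaGACTCCactggctttacc
70-bp LD: gagctacgggtcCAAGgcagggaaggag
The longest LD shared by the replicates removed 601 bp from -10 to 590 at 4 bp of MH, in 1 molecule of each. No LD type was seen in more than 8 of 661 molecules, and 114 of the 155 LD types (73.5%) were seen in 1 molecule.

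Most LDs spanned the cut. As listed, 102 of 108 LDs did so in replicate 1 (94.4%, 88.4% to 97.4%) and 96 of 106 in replicate 2 (90.6%, 83.5% to 94.8%). The rest lay on the PAM side, 6 and 7 molecules, or away from it, 0 and 3. Deletions under 50 bp spanned the cut in 108 of 209 molecules in replicate 1 (51.7%) and 81 of 158 in replicate 2 (51.3%), with 65 and 47 on the PAM side and 36 and 30 away from it. Size alone affects this share, as only indels near the cut were kept and longer ones span it in more placements. The 25 deletions of 1 bp could not span it. No background of possible placements was computed. Over all deletions the spanning share was 66.2% in replicate 1 and 67.0% in replicate 2, a difference of 0.799 points (-6.91 to 8.41, Fisher's exact test, two-sided, p = 0.860). A deletion at a repeat can be written at several positions, and the 7-bp deletion is listed on the PAM side. Counting a deletion as spanning where any equivalent placement does gave 75.7% in replicate 1 and 78.4% in replicate 2.

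**Figure D3:**
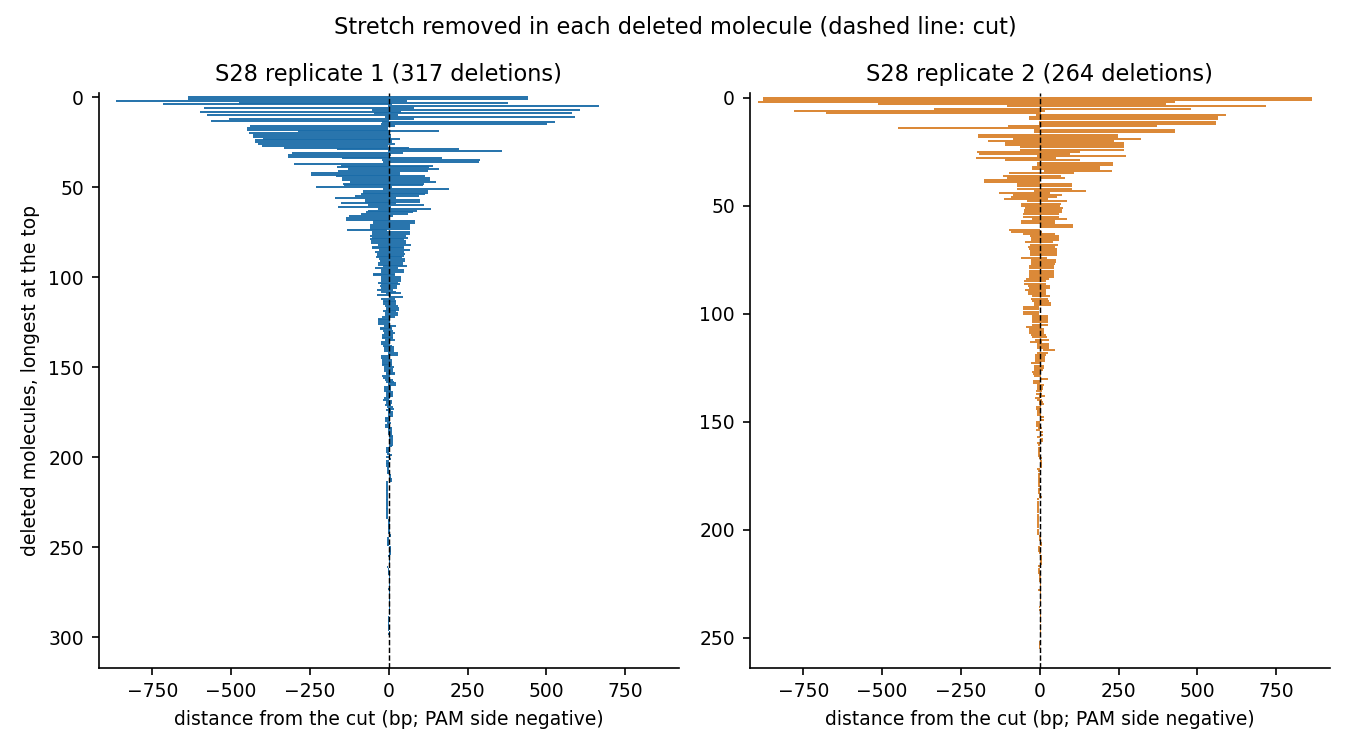
Stretch removed in each deleted S28 molecule (horizontal lines; x axis, distance from the cut in bp, PAM side negative), sorted by length, for the 317 deletions of replicate 1 and the 264 of replicate 2. The longest reach 894 bp to the PAM side and 864 bp away from it, both in replicate 2.

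LDs mostly took bases from both sides of the cut, in unequal amounts. In LDs the median loss was 80 bp on the PAM side and 53 bp on the other side in replicate 1, against 48 bp and 59 bp in replicate 2. The PAM side lost more in 59 of 108 LDs in replicate 1 (54.6%) and in 38 of 106 in replicate 2 (35.8%). The base 200 bp from the cut on the PAM side was deleted in 30 of 357 indels in replicate 1 (8.40%) and 9 of 304 in replicate 2 (2.96%), whereas 200 bp away on the opposite side it was deleted in 13 (3.64%) and 26 (8.55%). These values were examined after seeing the map and were not tested. Deletions under 50 bp had a median of 6 bp lost on the PAM side in both replicates and of 4 and 3 bp on the other side. A base of the PAM was removed, as listed, in 214 of 317 deletions in replicate 1 (67.5%) and 192 of 264 in replicate 2 (72.7%), and 69 deletions of both replicates lay wholly to the right of the cut and left it in place.

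MH was read from the reference at each of 579 deletions without inserted bases, 315 in replicate 1 and 264 in replicate 2. At least 1 bp of MH was present in 67.0% of those in replicate 1 (61.6% to 71.9%) and 73.9% in replicate 2 (68.2% to 78.8%), and at least 2 bp in 46.0% (40.6% to 51.6%) and 47.3% (41.4% to 53.4%). The background is the share with such MH among all distinct deletions of the same lengths that touch or span the cut, each counted once. It was 32.5% and 31.2% for 1 bp and 10.5% and 10.4% for 2 bp. By size, the share was higher in LDs, a difference that was not tested. In LDs at least 2 bp of MH was present in 73 of 108 molecules in replicate 1 (67.6%) and 68 of 106 in replicate 2 (64.2%), against a background of 7.87% and 7.54%. In deletions under 50 bp it was present in 34.8% and 36.1%, against a background of 11.9% and 12.3%. MH of 4 bp or more was present in 21.3% and 23.6% of LDs, against a background of 0.662% and 0.917%. Of the 95 molecules of any size with at least 4 bp of MH, 38 carried the 7-bp deletion at TGACCC.

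**Figure D4:**
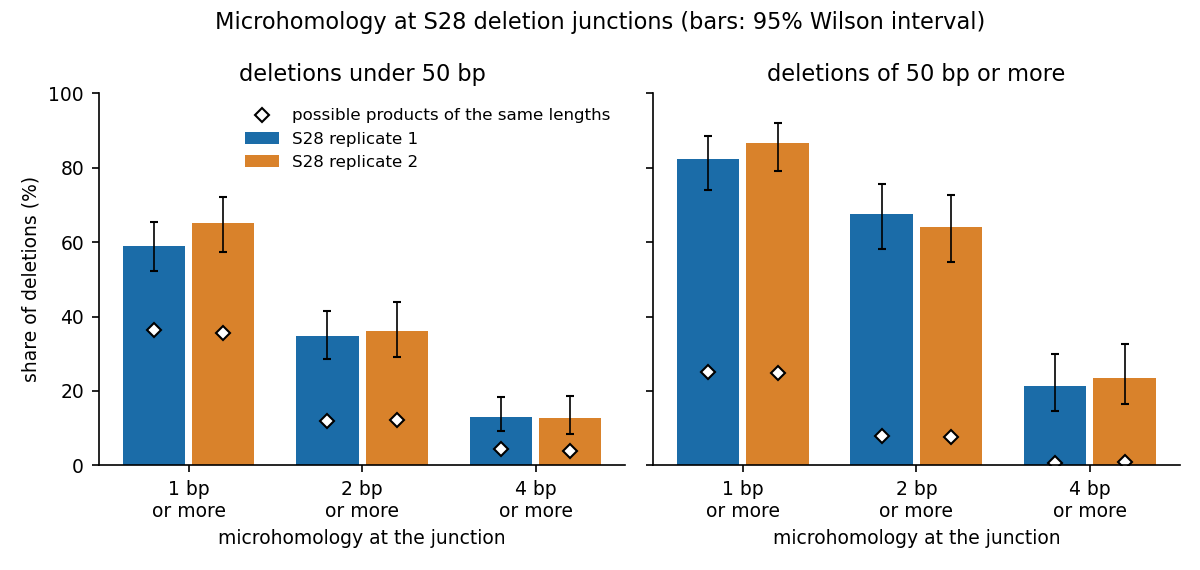
Share of S28 deletions (y axis, %) with at least 1, 2 or 4 bp of MH (x axis) in replicates 1 and 2, for deletions under 50 bp and LDs, with 95% Wilson intervals; diamonds give the share among all possible deletions of the same lengths at the cut. In LDs the share with 2 bp or more was 67.6% and 64.2%, against 7.87% and 7.54% of possible deletions.

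Most listed LIs sat at the cut but differed in sequence. Of the 47 LIs described, 37 began between bases -1 and 2, and the range was -15 to 22. That range is bounded by the filter, as the authors kept only indels that overlap a window of 30 bp around the cut. Their median length was 69 bp in replicate 1 and 109 bp in replicate 2. The longest were 1856 bp in replicate 1 and 1013 bp in replicate 2, in 1 molecule each. Those with most molecules were a 109-bp insertion at base 0, in 0 molecules in replicate 1 and 3 in replicate 2, and insertions of 24 and 69 bp at base 1 (2 and 0 each), 61 bp at base 0 (0 and 2) and 140 bp at base 1 (0 and 2). The listed length differed from the length of the listed sequence in 14 LIs, by at most 14 bases, so copies of 1 insertion that differ by a reading error count as different types.

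Although no whole LI recurred between replicates, most LIs shared stretches of sequence. A run of 20 identical bases, on either strand, was shared with an LI of another target site by 13 of 21 LIs in replicate 1 (61.9%, 40.9% to 79.2%) and 19 of 26 in replicate 2 (73.1%, 53.9% to 86.3%), and with an LI of the other S28 replicate by 13 and 17. None of the 32 LIs that shared a run with another site matched the mouse genome (blastn, GRCm38, under 10% of the insertion covered). Of the 15 remaining LIs, 9 had a match and 6 had neither, and those 6, of 24 to 55 bp, had 0 exact copies on the assembled chromosomes. Copies with a misread base, or insertions joined from pieces, would escape that search, so absence from the genome was not shown. The vector sequence was not used here, so the source of the 32 was not assigned.

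The S28 guide itself was found in 5 of the 47 LIs, 1 in replicate 1 (1078 bp) and 4 in replicate 2 (326, 473, 579 and 1013 bp), and in 0 of 114 LIs described at the other sites. In none of the 5 was the guide followed by the PAM that follows it in the genome. The next 20 bases were the same in all 5, were absent from the S28 locus, and occurred in 16 LIs of the other sites, as did the 20 bases before the guide. The methods list the sgRNA after the U6 promoter in the AAV vector, and whether these bases are those of the vector was not tested.

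The 9 LIs with a genome match held sequence from beside the cut or from other chromosomes. An LI of 124 bp in replicate 2 was a whole copy of chr4:139771876-139771999, 78 to 201 bp to the right of the cut. The 140-bp insertion at base 1, in 3 molecules of replicate 2 of which 1 differed in sequence, held 85 bases of chr4:139772342-139772426, 544 to 628 bp to the right. A 270-bp LI in replicate 1 joined 143 bases from 99 to 241 bp to the right with 123 bases, inverted, from chr4:139770625-139770748 (positions -1173 to -1050). Other chromosomes gave a whole match for a 155-bp LI in an exon of Tbrg1 (chr9:37650064-37650218) and for a 152-bp LI in intergenic sequence (chr1:165741782-165741933), both in replicate 1. A 198-bp LI in replicate 1 held 122 bases of chr6:103314604-103314725, also intergenic, and 32 bases of a repeat, and a 31-bp LI in replicate 2 matched 34 places equally well.

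S28 was set against S1, S7 and S18 by 6 measures per edited sample, with exact two-sided permutation tests over the 28 ways to choose 2 of 8 samples, whose smallest possible p is 0.0357. After adjustment over the 6 measures, a single measure at that smallest p could not pass on its own, so the adjusted tests could hardly make a call. None passed after adjustment over the 6 measures (0 of 6, adjusted p 0.321 to 0.929), and none had an unadjusted p under 0.05. These tests and the SDs below take libraries as the units. The 6 other samples are 2 libraries of each of 3 sites, so neither measures the spread between sites. In 2 of the 6 measures (33.3%) both S28 samples lay below all others. Deletions of 500 bp or more made up 5.05% and 4.92% of S28 deletions, against 6.70% to 24.7% at the other sites (4.99% ± 0.0870 for S28 and 13.2% ± 8.39 for the others, SD, n = 2 and 6, exact p = 0.107). Deletions spanning the cut made up 66.2% and 67.0% at S28, against 70.1% to 93.9% (exact p = 0.0714), and with equivalent placements counted they made up 75.7% and 78.4%, against 79.5% to 97.0%. Longer deletions span the cut in more placements, and the size of deletions was not adjusted for. The other 4 measures overlapped. The median deletion was 25 and 22 bp at S28, against 13.5 to 120 bp (exact p = 0.464), and the median LD was 207 and 119 bp, against 186 to 322 bp, so replicate 2 lay below all samples of the other sites (exact p = 0.179). The most frequent type held 5.88% and 5.59% of S28 indels, against 3.75% to 11.98% (exact p = 0.250). Molecules with a type of the other replicate made up 42.3% and 39.8% at S28, against 16.7% to 59.5% (exact p = 0.929). This share depends on the number of molecules, and with each library thinned to 94 indels it was 29.3% and 27.0% at S28, against 16.6% to 50.1%.

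**Figure D5:**
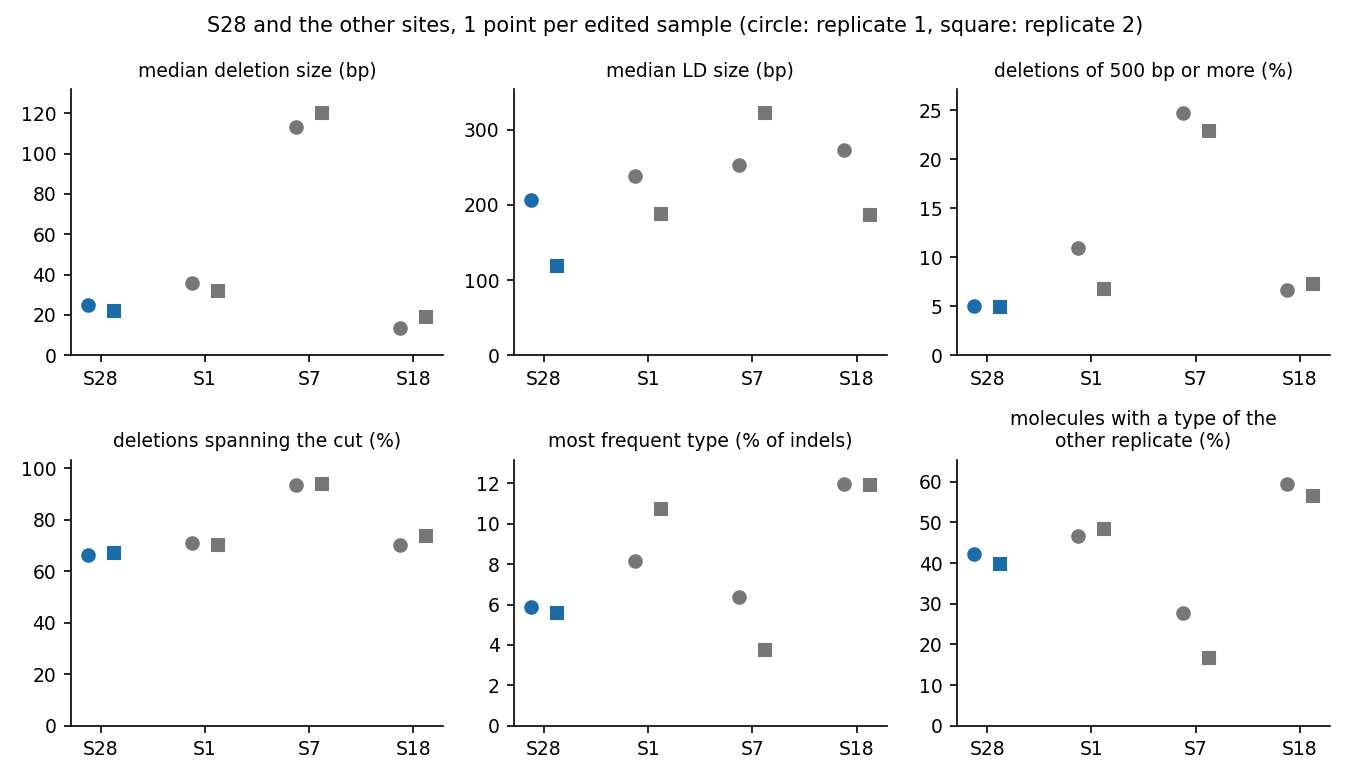
The 6 measures (y axes, units in the panel titles) in each edited sample of S28 (blue) and of S1, S7 and S18 (grey), circles for replicate 1 and squares for replicate 2. Both S28 samples are lowest for deletions of 500 bp or more (5.05% and 4.92%) and for deletions spanning the cut (66.2% and 67.0%), and S28 replicate 2 also has the lowest median LD (119 bp).

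MH was less common at S28 than at the other sites over all deletions, but not among LDs. At least 2 bp of MH was present in 46.0% and 47.3% of S28 deletions, against 54.1% to 67.4%, and in 67.6% and 64.2% of S28 LDs, against 58.4% to 70.8%. The background of possible deletions at S28 was 10.5% and 10.4%. It was higher at S1 (18.9% and 21.1%) and S18 (15.7% and 14.2%) and lower at S7 (9.21% and 8.87%). The shares over all deletions are therefore not set against a common background. For LDs the background was 7.87% and 7.54% at S28, against 6.80% to 8.51%. These differences between sites were not tested.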

How the data were processed

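The deposited tables list counts of UMI types and indels per edited library, fractions made from them, and every indel per UMI. The authors made these counts from Nanopore R10 reads of quality 10 or more that held both primers, called variants with VAULT, kept indels that overlap a window of 30 bp around the cut, removed indels found in controls, and deposited other values such as positions relative to the cut. For that step, the sources used here name no aligner and no genome build. Here each UMI was counted once, with its structural-variant line preferred (39 S28 molecules had more than 1 line, 6 with differing lines), and 13 emptied S28 lines were left out. An indel type is 1 start, deleted length and inserted sequence. Size is the inserted length of insertions and the deleted length of deletions. Fisher's exact tests, Wilson intervals, Newcombe intervals of differences and permutation tests used scipy 1.17.1 (Python 3.11.15) with an adjusted p of 0.05 as threshold. LIs were searched in GRCm38 with blastn 2.17.0 (word size 15, E-value 1e-04), and an LI counted as a whole match where 90% of it lay in 1 hit. Fisher's exact tests were also run on simulated libraries of independent molecules. That check does not cover molecules that descend from a common edited cell. Named indels were the 10 most frequent types, the 5 most frequent LD and LI types (ties by smaller size) and the longest of each replicate. The guide was read from GRCm38 beside the listed cut. Other size measures, type definitions, minimums, denominators, cut positions and run lengths, a replicate block and leaving out each sample were tried. The members, lists and tests were chosen with earlier results of these data known. The fractions (TIF) deposited by the authors were not used further.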

Additional observations from a re-analysis of the deposited data

How the results depend on the processing

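Of 162 values recomputed under other settings, 116 were labelled as kept. These kept direction and side of the threshold, gave an equal or similar count of calls, or stayed within their counting interval. Of the rest, 29 left that interval, 8 reversed direction, 7 were weaker and 2 stronger. Many of the 116 are tests against the other sites, which could hardly make a call in any setting. Keeping their side of the threshold is therefore no sign of stability. The settings that take only UMIs read in both orientations, as inferred from their names, were chosen after seeing the data. So were those that treat equivalent placements of a deletion as 1. Counting each type once left 0 of 12 size classes called. So did UMIs in both orientations, which kept only 158 molecules in replicate 1 and 118 in replicate 2. UMI types as denominator, which also take in the different share of indels per UMI type, gave 1 of 7 recurrent types and 3 of 12 size classes. The Jaccard index of all types was 0.239 by net length and class, 0.163 for types with at least 2 molecules and 0.0838 with UMIs in both orientations. The share of molecules with a type of the other replicate was 65.0% and 67.4% by net length and class, 57.1% and 62.2% within 2 bp, and 27.8% and 27.1% with UMIs in both orientations (replicate 1 and 2). Against the other sites that share's difference of -1.56 points turned to 3.04 with UMIs in both orientations. Leaving out 1 edited sample gave -6.75 to 1.82 points (1.82 without S18 replicate 1 and 1.24 without S18 replicate 2), -40.5 to -19.2 bp for the median deletion, -124.5 to -36.5 bp for the median LD, -9.53 to -5.93 points for deletions of 500 bp or more, -13.7 to -8.89 points for the spanning share and -4.10 to -2.45 points for the most frequent type, none with an adjusted p under 0.05. Thinning each library to 94 indels gave -4.76 points for the shared molecules. Replicates share only a number. With the replicate number as a block the adjusted p for the spanning share was 0.375, but 16 arrangements allow no p below 0.0625, and the 7 left without 1 S28 sample none below 0.143, so neither setting could make a call. In the other settings of this comparison, a single measure at the smallest possible p could not pass on its own either.

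The spanning difference between replicates, 0.799 points, was 6.98 with the cut moved 3 bp to the PAM side, -2.86 with it moved away from the PAM, -4.27 by distinct types, -0.409 under 50 bp, -3.88 in LDs and -2.45 with UMIs in both orientations, none past the threshold. The spanning share of replicate 1 was 59.3% with the cut moved to the PAM side and 72.9% with UMIs in both orientations. By distinct types it was 82.7% in replicate 1 and 78.5% in replicate 2, under 50 bp 51.7% and 51.3%, in LDs 94.4% and 90.6%, and with any placement 75.7% and 78.4%. MH of 1 bp or more was present in 58.9% and 65.2% of deletions under 50 bp, 82.4% and 86.8% of LDs, and 72.1% of replicate 1 with UMIs in both orientations, and MH of 2 bp or more in 34.8% and 36.1% under 50 bp and 67.6% and 64.2% of LDs. A run of 20 bases shared with the S28 locus was found in 8 of 26 LIs of replicate 2 (30.8%). Of these, 4 held the guide, which itself matches 20 bases of the locus. The other 4 held 85 or 124 bases from beside the cut, and only these remained with a run of 30 bases (15.4%). The cause of the other shifts was not tested. With 304 to 357 indels, a type seen 0 times may hold up to 0.987% of replicate 2 by the limit of 3 counts.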

Other observations

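One S28 molecule carried neither a deletion nor an insertion. In replicate 2 an inversion of 847 bp was listed from -715 to 131 (chr4:139771083-139771929). Replicate 1 listed 0 inversions among 357 indels, which allows, by the limit of 3 counts, a share of up to 0.840%. Only 3 other S28 molecules, all in replicate 1, combined deleted with inserted bases, namely 2 deleted with 1 inserted, 3 deleted with 4 inserted, and 12 deleted with 11 inserted.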
